A study of Mus musculus with 3 samples.

Results

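The genes described here encode the mitochondrial ribosome (names beginning with Mrpl or Mrps) and the translocases that bring proteins into mitochondria (names beginning with Timm or Tomm), in endocrine cells of NOD mouse islets with and without IRE1α in beta cells. They were taken by these 4 name stems from the authors' tables of genes that differed between genotypes. There were 87 such genes among 8193 listed in beta cells, 0 among 186 listed in alpha cells and 2 among 231 listed in delta cells. Of 104 protein-coding genes with these stems in the annotation GENCODE M21, the 17 others, among them Timm23, Mrps12, Mrps22 and Mrpl35, were not in the beta-cell table and were not analysed here. The number of genes the authors tested in beta cells is not stated. Worked back from their p-values and q-values, taking these as Benjamini-Hochberg adjusted, it was 18527, of which 44.2% were listed.

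Single cells were profiled from islets of 2 knockout mice, genotype IRE1[alpha][beta]-/- (KO), and of 1 control mouse, genotype IRE1[alpha]fl/fl (WT). All 3 mice were NOD/ShiLtJ, a strain that develops autoimmune diabetes, and 5 weeks old, and the labels give all of them the tamoxifen injections (10 mg per ml) that switch on Cre recombinase. The promoter that drives Cre, and whether the control carried Cre, are given in none of the sources used here. In beta cells the authors pooled both knockout mice into 1 column (815 cells, against 829 control cells), so no value there has a spread between mice. In delta cells each mouse has its own column (KO1 with 138 cells, KO2 with 78, WT with 101).

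Values are mean unique molecular identifiers (UMIs, each standing for 1 captured transcript) per cell, not scaled for depth. A ratio is knockout over control UMIs per cell, and brackets hold its exact 95% interval, which covers counting error only and leaves out the error between mice. With 1 control mouse no difference in beta cells was tested, and a gene was counted as higher or lower where its fold was 1.5 or more. Listed genes summed to 24796 UMIs per knockout and 31552 per control beta cell, and to 11434 and 9498 without Ins1, Ins2 and Iapp. Beta-cell markers were present (6 of 6 in the table, all 6 lower in knockout cells, summed level 13364 against 22059 UMIs per cell). Ern1, which encodes IRE1α, read 0.742 UMIs per knockout and 0.509 per control beta cell; reads outside the deleted exons would not show the deletion, so the genotype is used as labelled.

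Markers of other cells also moved in the beta-cell table. Summed levels in knockout against control cells were 114 against 49.2 UMIs per cell for alpha-cell markers (4 of 6 in the table, all 4 higher), 64.6 against 39.6 for delta-cell markers (3 of 4, all higher) and 107 against 21.7 for PP and epsilon-cell markers (2 of 3, both higher). Red-cell globins (3 of 4) summed to 22.6 against 0.0639 and duct markers (3 of 6) to 10.5 against 5.80. Acinar (1 of 8), mesenchymal (3 of 5), endothelial (2 of 4) and immune markers (4 of 6) all summed to under 1 UMI per cell in both groups, with Reg3b and Col1a1 at 0 in control cells. Their part in the values below was not tested.

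Mitochondria make only a few proteins themselves, all of them subunits of the respiratory chain and the ATP synthase, on ribosomes whose proteins are encoded in the nucleus and imported. Imported proteins cross the outer membrane through the TOM complex and then go through the TIM23 complex to the matrix or, in the case of metabolite carriers, through small TIM chaperones and the TIM22 complex into the inner membrane. In beta cells, ATP from respiration closes potassium channels and so couples glucose to insulin release.

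Transcripts of the mitochondrial ribosome and the import machinery were modestly higher per knockout beta cell, by less than the typical listed gene. A higher level per knockout cell was seen in 80 of the 87 (92.0%, where 95.0% of all listed genes did) and a lower one in 7. The median ratio was 1.25 against 1.45 for all listed genes, or a log2 ratio of 0.32 against 0.54. The 87 genes also had a higher median control level, 0.634 against 0.286 UMIs per cell, and ratios fell with level in all listed genes. Beside listed genes of like level, their median ratio was close from 0.25 to 0.5 UMIs (1.34 beside 1.37) and from 0.5 to 1 (1.29 beside 1.30). It was lower in the other level ranges. The part of level in the gap was not tested. At a fold of 1.5 or more, 16 genes were higher (18.4%, where 45.7% of all listed genes were) and 0 were lower (where 2.47% were). The interval of the ratio lay above 1 for 62 genes (71.3%, where 87.0% of all listed genes had this), below 1 for 3 genes (where 3.61% had this) and included 1 for 22. Summed over the 87 genes, the level was 106.1 UMIs per knockout and 90.4 per control cell, a ratio of 1.17 [1.16 to 1.19].

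These per-cell values depend on how cells of unlike RNA content are set against each other. Scaled to the listed total, which insulin dominates, 54 of the genes were higher at a fold of 1.5 (where 83.2% of all listed genes were) and all 87 were higher at any fold. Scaled to what remains of that total when Ins1, Ins2 and Iapp are left out, 3 were higher at that fold (where 25.7% were) and 0 were lower (where 2.80% were), and the signs were mixed, with 51 above and 36 below no change. Centred on the median of all listed genes, 1 was higher (where 16.0% were) and 4 were lower (where 4.19% were), and 65 of the 87 lay below that median. Under each of these scalings the share past the fold in the upward direction was below that of all listed genes. Each scaling shifts all log2 ratios equally and keeps the order of genes, so these shares are not independent checks.

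Promoters of some of the genes, picked after values were seen, are shown. Many genes of this group are known targets of the factors NRF1, GABPA (an ETS factor) and YY1. The windows are RefSeq promoters of build GRCm38.p6, from 250 bases before to 50 bases after the annotated start. Capitals mark the ETS letters CCGGAAG or the NRF1 letters (GCGC, any base, then TGCGC) on either strand. Mrps33 and Tomm22 were among the highest of their complexes, Mrpl33 and Mrpl36 were listed in both cell types, and Mrpl17 and Timm10b were among the lowest. Genes with still higher ratios, among them Timm21 and Mrpl38, are not shown.
Mrps33, chr6:39810887-39811186, minus strand: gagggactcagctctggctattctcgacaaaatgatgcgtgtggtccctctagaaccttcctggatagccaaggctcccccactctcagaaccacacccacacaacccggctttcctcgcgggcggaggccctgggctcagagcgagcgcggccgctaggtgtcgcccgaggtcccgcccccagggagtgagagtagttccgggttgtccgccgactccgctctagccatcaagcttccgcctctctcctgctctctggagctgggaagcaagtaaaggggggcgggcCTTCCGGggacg
Tomm22, chr15:79670618-79670917, plus strand: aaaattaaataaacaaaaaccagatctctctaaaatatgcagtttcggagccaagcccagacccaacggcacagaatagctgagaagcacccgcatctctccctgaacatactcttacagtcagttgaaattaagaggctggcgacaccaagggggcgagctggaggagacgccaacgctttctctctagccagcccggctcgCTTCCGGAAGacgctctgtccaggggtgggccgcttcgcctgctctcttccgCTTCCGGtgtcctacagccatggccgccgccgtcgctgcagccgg
Mrpl33, chr5:31613701-31614000, plus strand: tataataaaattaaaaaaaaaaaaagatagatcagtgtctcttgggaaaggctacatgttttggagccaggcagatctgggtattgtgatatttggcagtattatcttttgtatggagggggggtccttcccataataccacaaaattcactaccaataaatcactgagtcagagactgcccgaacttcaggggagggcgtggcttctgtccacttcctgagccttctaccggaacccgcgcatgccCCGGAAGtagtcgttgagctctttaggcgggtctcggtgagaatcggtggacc
Mrpl36, chr13:73330759-73331058, plus strand: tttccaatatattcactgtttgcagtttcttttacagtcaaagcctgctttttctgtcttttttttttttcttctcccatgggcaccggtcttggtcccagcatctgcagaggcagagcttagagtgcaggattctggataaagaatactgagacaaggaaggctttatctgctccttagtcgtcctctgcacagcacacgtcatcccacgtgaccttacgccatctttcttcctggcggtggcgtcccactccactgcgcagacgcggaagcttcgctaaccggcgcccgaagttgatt
Mrpl17, chr7:105811038-105811337, minus strand: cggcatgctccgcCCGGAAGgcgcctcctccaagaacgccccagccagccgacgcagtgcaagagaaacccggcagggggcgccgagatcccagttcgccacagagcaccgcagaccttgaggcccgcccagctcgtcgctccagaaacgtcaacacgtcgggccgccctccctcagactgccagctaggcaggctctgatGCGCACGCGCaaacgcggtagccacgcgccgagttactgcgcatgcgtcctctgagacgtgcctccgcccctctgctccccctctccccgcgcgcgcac
Timm10b, chr7:105640195-105640494, plus strand: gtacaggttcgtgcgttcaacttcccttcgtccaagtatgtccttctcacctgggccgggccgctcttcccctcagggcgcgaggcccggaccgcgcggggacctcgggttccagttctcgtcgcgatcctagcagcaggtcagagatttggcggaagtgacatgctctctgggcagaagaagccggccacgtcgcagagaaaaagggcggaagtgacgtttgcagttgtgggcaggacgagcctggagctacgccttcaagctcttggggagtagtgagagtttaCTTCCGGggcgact

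The window of Mrpl36 held neither set of letters, and that of Mrpl17 held both. Among the windows shown, the ETS letters stood in those of genes with higher and with lower transcripts alike. Of the 87 genes, 76 had a RefSeq window, and 26 of these (34.2%) held the ETS letters, beside 20.9% of the 6340 listed beta-cell genes with a window and 9.93% of all 27025 genes with one. The NRF1 letters were in 14 (18.4%), beside 12.7% and 5.19%. The YY1 letters (AAGATG followed directly by GCGGC) were in 4 (5.26%), beside 2.10% and 0.755%. Median GC content was 58.0% in the 76 windows, 61.7% in those of all listed genes and 52.8% in all windows, and matches of different motifs did not overlap. The median ratio was 1.18 for genes with the ETS letters and 1.27 for those without, and their median control levels also differed, 0.981 and 0.517 UMIs per cell. It was 1.22 with and 1.25 without the NRF1 letters (control levels 0.861 and 0.641), and 1.26 with and 1.25 without the YY1 letters (0.397 and 0.673). The part of level in these ratios was not tested. Of the factors, Yy1 was listed at 1.60 [1.42 to 1.79] and Gabpb1, the partner of GABPA, at 1.31 [1.04 to 1.66]; Nrf1 and Gabpa were not analysed here.

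**Figure D1:**
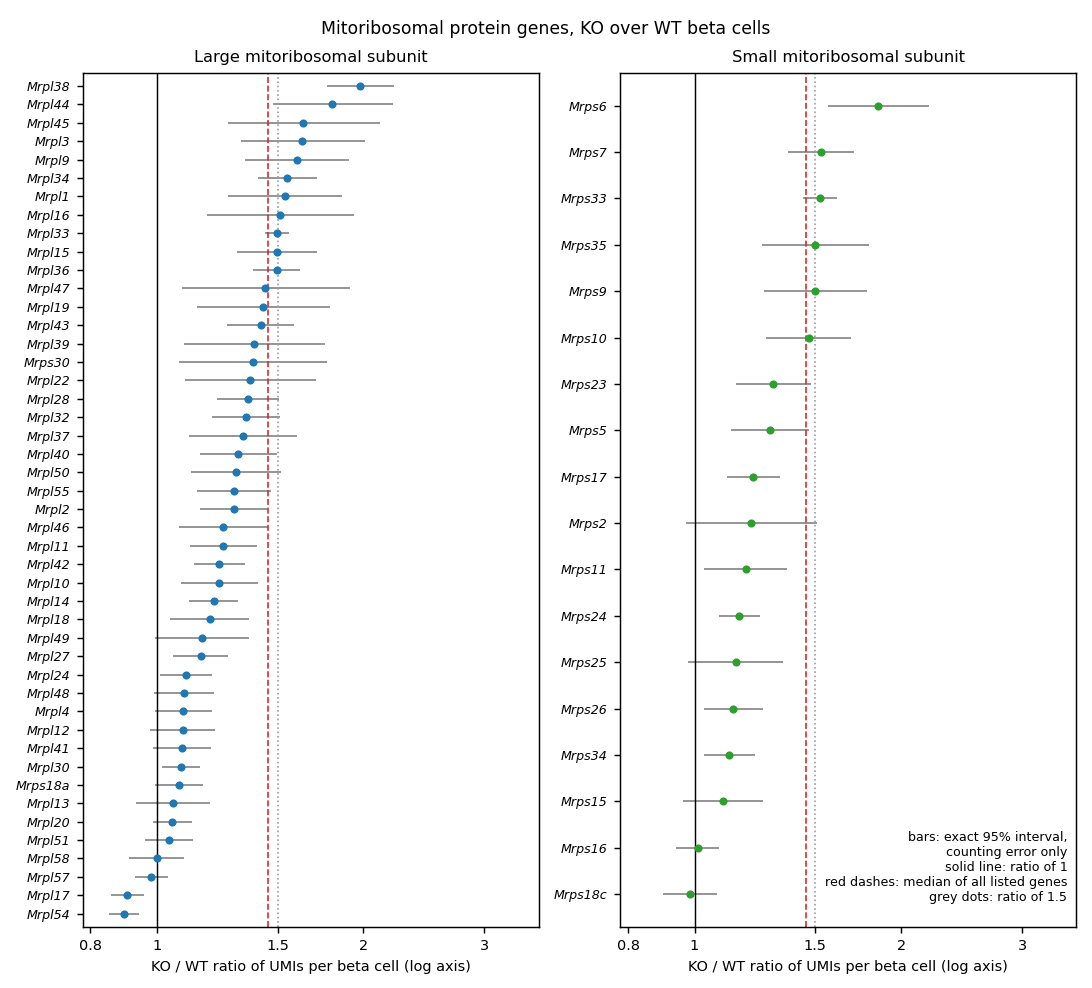
Ratio of UMIs per beta cell, knockout over control, on a log axis for 46 genes of the large and 18 genes of the small mitoribosomal subunit, with exact 95% intervals for counting error. Most points lie between the line at 1 and the red dashes at the median of all listed genes (1.45). A ratio of 1.5 is reached by 8 large-subunit and 3 small-subunit genes, where 45.7% of all listed genes reach it.

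In the large subunit, 42 of 46 genes were higher per knockout beta cell (91.3%, where 95.0% of all listed genes were). A fold of 1.5 was reached by 8 (17.4%, where 45.7% did), and the median ratio was 1.29. Mrps30 and Mrps18a are counted here because their proteins sit in this subunit. Mrpl38, whose protein is found only in mitochondrial ribosomes, had 1.15 UMIs per knockout and 0.579 per control cell, a ratio of 1.98 [1.77 to 2.21]. Mrpl44, which encodes a subunit with an RNase III-like fold, had 0.335 and 0.186, a ratio of 1.80 [1.47 to 2.21]. Mrpl45, whose protein lies at the exit of the peptide tunnel and anchors the ribosome to the inner membrane, had 0.201 and 0.123, a ratio of 1.64 [1.27 to 2.12]. These 3 had the highest ratios of the subunit, and each interval lay above 1. Mrpl3, Mrpl9, Mrpl34, Mrpl1 and Mrpl16 made up the rest of the 8, at ratios from 1.51 to 1.63, and Mrpl33, Mrpl15 and Mrpl36 followed just under the fold at 1.496, 1.495 and 1.494.

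The lowest ratios of the large subunit were close to 1. Mrpl54 and Mrpl17 were the only large-subunit genes with an interval below 1. Mrpl54, of the stalk that binds translation factors, had 3.46 UMIs per knockout and 3.86 per control cell, a ratio of 0.897 [0.852 to 0.944]. Mrpl17, a protein family shared with bacterial ribosomes, had 2.91 and 3.21, a ratio of 0.906 [0.857 to 0.958]. Mrpl57 had 3.03 and 3.08, a ratio of 0.982 [0.929 to 1.04]. Mrpl58, a peptidyl-tRNA hydrolase built into the large subunit, had 1.12 UMIs per cell in both groups, and its ratio was 1.00 [0.911 to 1.10]. Of the other proteins of the stalk itself, listed were Mrpl12 at 1.09 [0.979 to 1.21] and Mrpl10, which anchors the stalk, at 1.23 [1.08 to 1.40]. The summed level of the 3 stalk genes, 4.96 UMIs per knockout and 5.16 per control cell, gave a ratio of 0.960 [0.920 to 1.00]. Most of that sum was Mrpl54, the only 1 of the 3 with a ratio below 1, and the 2 others were higher. This group was formed after values were seen, so the sum describes Mrpl54 more than the stalk.

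In the small subunit, 17 of 18 genes were higher (94.4%, where 95.0% of all listed genes were). A fold of 1.5 was reached by 3 (16.7%, where 45.7% did), and the median ratio was 1.21. Mrps6, a protein family shared with bacteria, had 0.482 UMIs per knockout and 0.261 per control cell, a ratio of 1.85 [1.56 to 2.20]. Mrps7, a protein of the subunit's head, had 0.969 and 0.634, a ratio of 1.53 [1.37 to 1.71]. Mrps33, a mitochondrion-specific protein, had 3.62 and 2.38, a ratio of 1.52 [1.44 to 1.61]. Mrps33 rests on 2953 and 1971 UMIs and has the narrowest interval of the 3. Mrps35 and Mrps9 lay just under the fold, at 1.4995 and 1.499.

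The lowest of the small subunit were Mrps18c, 1 of the S18 variants, at 0.985 [0.899 to 1.08], Mrps16 at 1.01 [0.941 to 1.09] and Mrps15 at 1.10 [0.963 to 1.26]. All 3 intervals included 1. Mrps24, with 2.19 UMIs per knockout and 1.88 per control cell, was at 1.16 [1.08 to 1.24]. Of the 18 genes, 13 had an interval above 1 (where 87.0% of all listed genes did) and 0 an interval below 1 (where 3.61% did).

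The subunits were close to each other. The median log2 ratio was 0.37 in the large and 0.28 in the small subunit, with quartiles from 0.13 to 0.52 and from 0.19 to 0.58. By summed level the order was the other way, with 52.2 UMIs per knockout and 44.1 per control cell for the large subunit, a ratio of 1.18 [1.17 to 1.20], and 18.6 and 15.0 for the small, a ratio of 1.24 [1.21 to 1.27]. Split by descent, proteins with bacterial relatives had median ratios of 1.30 (27 genes, large subunit) and 1.21 (12 genes, small), and mitochondrion-specific proteins 1.25 (19 genes, large) and 1.22 (6 genes, small). No difference between these classes was tested. The 3 listed mitoribosomal proteins with other names were also higher, all with intervals that included 1: Dap3 at 1.15 [0.986 to 1.35], Aurkaip1 at 1.11 [0.996 to 1.24] and Gadd45gip1 at 1.10 [0.994 to 1.22].

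**Figure D2:**
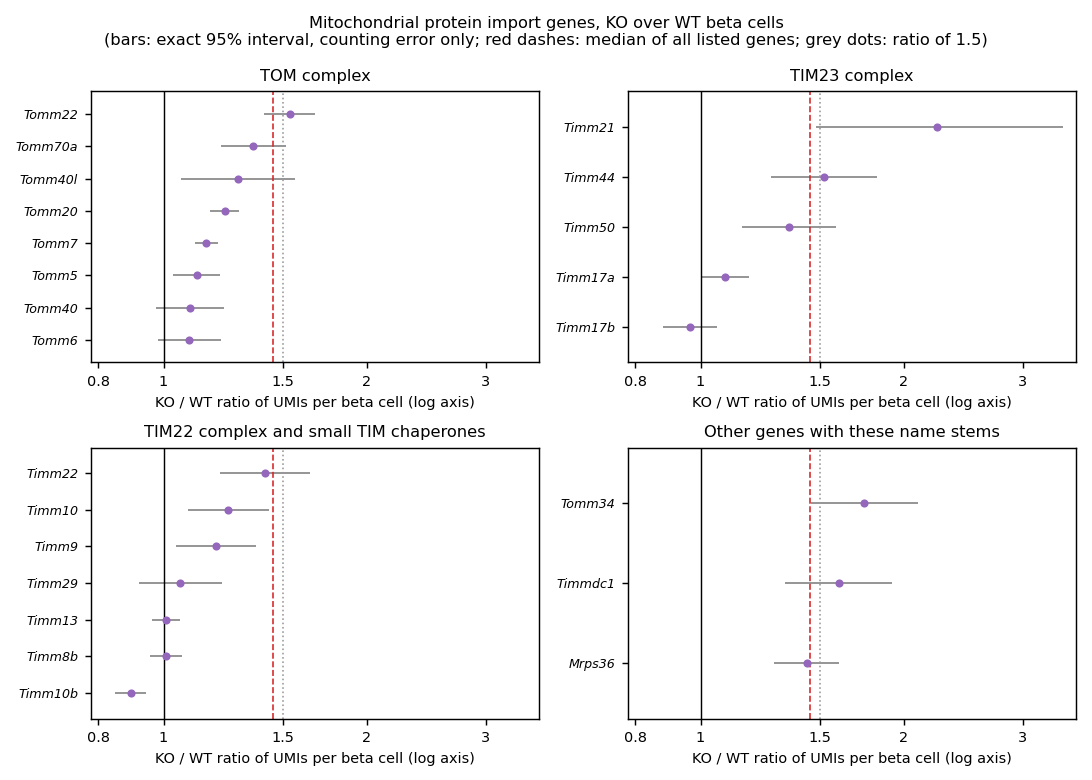
Ratio of UMIs per beta cell, knockout over control, on a log axis for genes of the TOM, TIM23 and TIM22 complexes with the small TIM chaperones, and for 3 other genes with the same name stems, with exact 95% intervals for counting error. Tomm22 leads the TOM panel at 1.54, Timm21 the TIM23 panel at 2.24, and Timm13, Timm8b and Timm10b lie at or below 1.01.

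Import genes of the outer membrane, other than Tomm22, had ratios below the median of all listed genes. The summed ratio was higher for the receptors than for the rest of the complex, a split made after values were seen. Single genes did not all follow it, as Tomm40l, at 1.29, was above the receptor Tomm20, at 1.23. The TOM complex had 8 of 8 genes higher (where 95.0% of all listed genes were) and 1 at a fold of 1.5 (where 45.7% were), at a median ratio of 1.19. Tomm22, the central receptor and organizer, had 1.59 UMIs per knockout and 1.03 per control cell, a ratio of 1.54 [1.41 to 1.68]. Tomm70a, the receptor for carrier proteins, had 0.929 and 0.684, a ratio of 1.36 [1.22 to 1.52]. Tomm20, the presequence receptor, had 4.29 and 3.48, a ratio of 1.23 [1.17 to 1.30]. Summed, the 3 receptors were at 1.31 [1.26 to 1.36].

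The channel and its small subunits summed to 1.14 [1.11 to 1.18]. Tomm40, the channel, was at 1.09 [0.973 to 1.23] and the related Tomm40l at 1.29 [1.06 to 1.57]. Tomm7, a small subunit with 6.75 UMIs per knockout and 5.83 per control cell, was at 1.16 [1.11 to 1.20]. The other small subunits were Tomm5 at 1.12 [1.03 to 1.21] and Tomm6 at 1.09 [0.982 to 1.21]. Tomm22 was thus the only gene of the complex above the median ratio of all listed genes.

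The listed genes of the TIM23 complex were spread widely. Timm21, which links the complex to TOM and to the respiratory chain, had the highest ratio of all 87 genes but few UMIs, 77 in knockout and 35 in control cells, or 0.0945 and 0.0422 per cell, a ratio of 2.24 [1.48 to 3.44]. Timm44, which tethers the import motor, had 0.382 and 0.251, a ratio of 1.52 [1.27 to 1.82]. Timm50, the receptor of the complex, was at 1.35 [1.15 to 1.59]. The paralogs Timm17a and Timm17b, which encode alternative partners of the channel, had 1.57 against 1.44 UMIs per cell (1.09 [1.01 to 1.18]) and 1.13 against 1.17 (0.965 [0.881 to 1.06]). The 4 other genes thus had intervals above 1 (where 87.0% of all listed genes did), and that of Timm17b included 1.

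Of the 5 ribosome and translocase groups, the carrier pathway had the median ratio closest to 1 in UMIs per cell, but not under every scaling. Its median log2 ratio was 0.08 in UMIs per cell, -0.19 when scaled to the listed total without insulin and Iapp, and -0.46 when centred, and under both of these scalings it lay farther from 0 than that of the TOM or TIM23 complex or either subunit. Of its 7 genes, 0 reached a fold of 1.5 (where 45.7% of all listed genes did). All 7 lay below the median of all listed genes, and their median ratio was 1.06. Summed, they had 12.8 UMIs per cell in both groups, a ratio of 1.00 [0.977 to 1.03]. Timm10b, a small TIM bound to the TIM22 complex, had 3.32 UMIs per knockout and 3.71 per control cell, a ratio of 0.894 [0.849 to 0.942], the lowest of all 87 genes. Timm13 and Timm8b, partners in a chaperone complex of the intermembrane space, had 4.19 against 4.16 UMIs per cell (1.01 [0.962 to 1.06]) and 3.14 against 3.11 (1.01 [0.954 to 1.06]).

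The other chaperone pair was a little higher, with Timm10 at 1.25 [1.09 to 1.43] and Timm9 at 1.19 [1.04 to 1.37]. Timm22, the carrier translocase itself, had 0.501 UMIs per knockout and 0.355 per control cell, a ratio of 1.41 [1.21 to 1.65]. Its partner Timm29 was at 1.06 [0.919 to 1.22]. The channel and its chaperones thus differed in ratio, but no difference between them was tested.

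The 3 genes that share these name stems without belonging to the complexes had ratios near or above the median of all listed genes. Tomm34, a cytosolic co-chaperone, had 0.405 and 0.232 UMIs per cell, a ratio of 1.75 [1.46 to 2.10]. Timmdc1, which helps assemble respiratory complex I, was at 1.60 [1.33 to 1.92]. Mrps36, whose protein is now placed in the 2-oxoglutarate dehydrogenase complex, was at 1.44 [1.29 to 1.60].

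**Figure D3:**
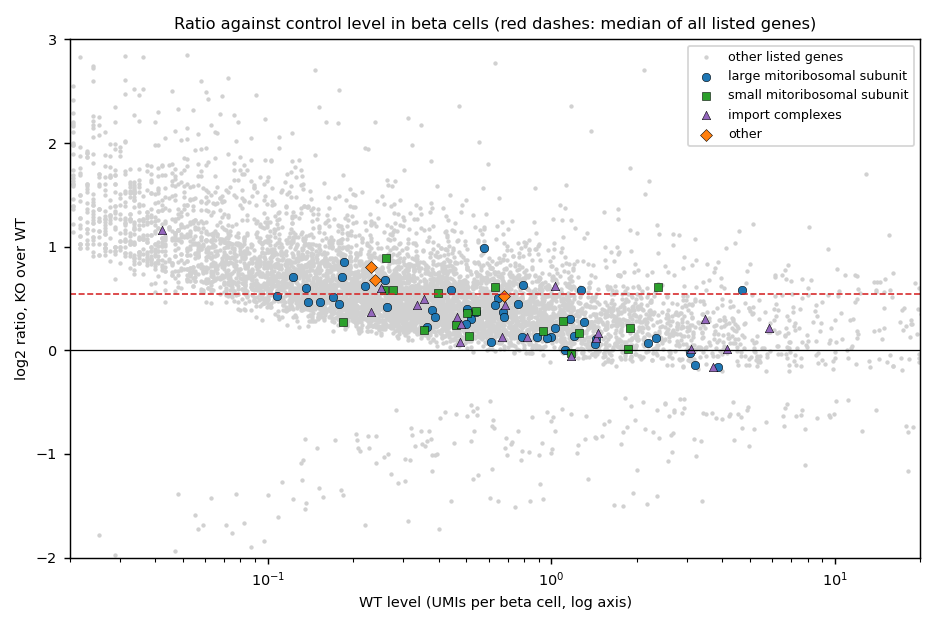
Log2 ratio of knockout over control against the control level in UMIs per beta cell (log axis), with the 87 genes in colour over the other listed genes in grey; grey points outside the axes are not drawn. The coloured points slope down with level along the lower part of the upper grey cloud, and none falls in the lower cloud.

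The ratio went with the level in these genes, as it did in all listed genes. For the 15 genes under 0.25 UMIs per control cell, 8 reached a fold of 1.5 (53.3%, where 73.8% of the 3768 listed genes of that level did) and the median ratio was 1.51 beside 1.79. The 18 genes from 0.25 to 0.5 had a median ratio of 1.34 beside 1.37, and the 25 genes from 0.5 to 1 had 1.29 beside 1.30. At these levels the medians lay close together, while the share at a fold of 1.5 was 16.7% of the ribosome and import genes from 0.25 to 0.5, where 30.4% of listed genes reached it, and 12.0% from 0.5 to 1, where 20.7% did. The 17 genes from 1 to 2 UMIs had a median ratio of 1.12 beside 1.21, and the 12 genes from 2 to 8 had 1.03 beside 1.13. The tables hold only genes that the authors called different, and the part of that selection in the slope was not tested.

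Genes with a ratio near 1 were listed as different, which bears on how the ratios read. Among the 1438 listed genes with at least 1 UMI per control cell, none had a log2 ratio between -0.46 and -0.24, while 1339 lay at or above that empty stretch and 99 at or below it. All 29 of the ribosome and import genes at that level lay above it, the lowest at -0.16. The listed total itself, knockout over control UMIs per cell, had a log2 ratio of -0.35, inside the empty stretch. A gene above the stretch was thus higher in knockout cells when scaled to that total. Whether the authors scaled in this way was not tested. Scaled to the listed total, Timm10b, Mrpl54 and Mrpl17, whose per-cell intervals lay below 1, had log2 ratios of 0.19, 0.19 and 0.20. Mrpl58 and Timm13 had 0.35 and 0.36 under that scaling. In the authors' deposited table, Mrpl58 has a q-value of 0.00526 and Timm13 one of 1.06e-14, at per-cell ratios of 1.00 and 1.01. The scaling behind those q-values is not given in the sources used here.

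Mrpl33 and Mrpl36 were the only genes of the 87 that were also listed in delta cells, where each mouse can be seen. Both encode small large-subunit proteins with bacterial relatives. Mrpl33 (ENSMUSG00000106918, mm10 chromosome 5, 31596935 to 31664384) had 4.33 UMIs per delta cell in KO1 and 4.74 in KO2, against 3.40 in WT. Mrpl36 (ENSMUSG00000021607, chromosome 13, 73328513 to 73332178) had 2.60 in KO1 and 2.46 in KO2, against 1.75 in WT. For both genes the knockout mice lay close together. Both mice also lay above the control mouse, as they did for 71.4% of the genes listed in delta cells.

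The mean of the knockout mice was 4.54 ± 0.290 UMIs per cell for Mrpl33 and 2.53 ± 0.0989 for Mrpl36 (SD, n = 2), ratios of 1.34 and 1.44 to the control. Neither reached a fold of 1.5, where 41.1% of listed delta-cell genes did upward and 16.0% did downward. The ratio of Mrpl33 was the median of the whole delta-cell table. In beta cells Mrpl33 had 7.01 UMIs per knockout and 4.69 per control cell, a ratio of 1.496 [1.44 to 1.56], and Mrpl36 had 1.90 and 1.27, a ratio of 1.494 [1.38 to 1.62]. The beta- and delta-cell values come from the same mice, so they are not independent.

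In a fit with each mouse as 1 sample, the quasi-likelihood test of edgeR on UMIs recovered for delta cells gave adjusted p = 0.253 for Mrpl33 and 0.228 for Mrpl36 with the cell number as offset, a setting in which 22.1% of the 231 genes passed 0.05. With the listed total as offset the adjusted p-values were 0.0642 and 0.0710, and 39.0% of genes passed. The test assumes that the single control mouse varies like the knockout mice. In the same delta cells the alpha-cell hormone Gcg was at 159 and 63.5 UMIs per cell in KO1 and KO2, against 10.0 in WT. The beta-cell product Iapp was at 797 and 698 against 1825. Iapp counts in the listed total used as offset, which was 3070 and 2643 UMIs per cell against 3674. Of the alpha-cell markers 3 of 6 were in the table, 2 higher (Gcg and Ttr) and 1 lower (Gc, at 1.41 and 1.37 against 3.12), summing to 165 and 67.4 against 14.1 UMIs per cell, and their part in the values of both genes was not tested. Of 4 delta-cell markers only Rbp4 was in the table, at 84.2 and 69.1 against 137 UMIs per cell, so the cell-type label could be checked no further.

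**Figure D4:**
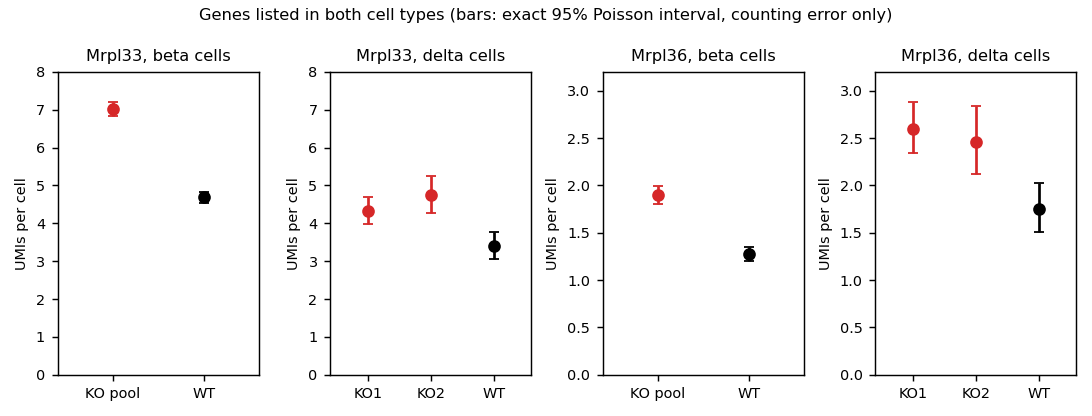
UMIs per cell of Mrpl33 and Mrpl36 in beta cells (both knockout mice pooled in 1 point, and the control mouse) and in delta cells (each knockout mouse and the control mouse), with exact 95% Poisson intervals for counting error. In both cell types the knockout points lie above the control point.

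In several cases the genes share a start region with a gene on the other strand. By GENCODE M21 starts, 36 of the 87 have a protein-coding gene on the opposite strand that starts within 1000 bases. The share over all listed genes was not computed, so the count does not set these genes apart. For 17 of these the neighbour was listed in beta cells. Mrpl46 and Mrps11, from both subunits, face each other on chromosome 7 and had ratios of 1.25 [1.08 to 1.45] and 1.19 [1.03 to 1.37]. Mrpl36 and its neighbour Ndufs6 of complex I were at 1.49 and 1.10. This pair rests on the GENCODE start of Mrpl36 at 73328513. The RefSeq window of Mrpl36 shown above begins at 73330759, more than 1000 bases from that start. Timm8b and its neighbour Sdhd of complex II were at 1.01 and 1.38. In the pairs named here, picked from the 17 after values were seen, the partners were thus alike or unlike in ratio.

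**Figure D5:**
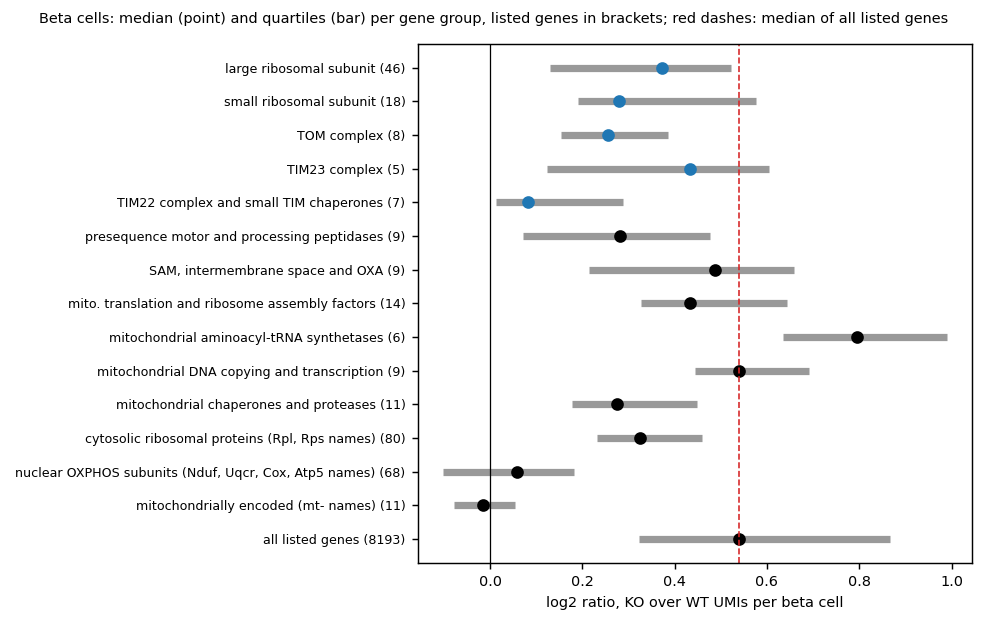
Median (point) and quartiles (bar) of the log2 ratio, knockout over control UMIs per beta cell, for the mitoribosome and import groups (blue) and for other mitochondrial groups, cytosolic ribosomal proteins and all listed genes (black). The mitoribosome groups lie next to the cytosolic ribosome and between OXPHOS subunits, near 0, and the aminoacyl-tRNA synthetases, at 0.79. The groups are not matched for control level, which differs widely between them.

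Factors that work beside the mitoribosome and the translocases are given next, and their counts stand beside the 95.0% of all listed genes that were higher and the 45.7% that reached a fold of 1.5. All 14 listed translation and ribosome assembly factors (of 24 on the list) were higher, 5 at a fold of 1.5, at a median ratio of 1.35. Mtg1 and Mtrf1l, an assembly GTPase and a release factor, led at 1.64 [1.29 to 2.09] and 1.63 [1.11 to 2.42], and the assembly factor Malsu1 was lowest at 1.08 [0.946 to 1.22]. All 6 listed mitochondrial aminoacyl-tRNA synthetases (of 17) were higher, 5 at that fold, at a median of 1.73, with Fars2 at 2.14 [1.74 to 2.64] and Iars2 at 1.24 [0.966 to 1.59]. They all had under 0.17 UMIs per control cell, a level at which large ratios were common.

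Genes of mitochondrial DNA copying and transcription were higher in 8 of 9 listed cases (of 12), at a median of 1.45. Lrpprc, which stabilizes mitochondrial mRNA, had 0.823 UMIs per knockout and 0.263 per control cell, a ratio of 3.13 [2.68 to 3.66], while its partner Slirp was at 0.965 [0.901 to 1.03]. Tfam, which packages and transcribes mitochondrial DNA, was at 1.61 [1.37 to 1.91]. Lrpprc and Mgme1, at 2.61 [1.59 to 4.43], had ratios above any of the 87 genes.

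Next to the translocases, the presequence motor and processing peptidases were higher in 8 of 9 listed cases (of 11), at a median of 1.21, with the motor chaperone Hspa9 at 1.03 [0.983 to 1.08] and the inner-membrane peptidase gene Immp2l at 1.73 [1.26 to 2.40]. Genes of outer membrane assembly, the intermembrane space and OXA export were higher in 8 of 9 (of 12), at a median of 1.40. Oxa1l, the insertase for proteins made by the mitoribosome, had 0.366 UMIs per knockout and 0.176 per control cell, a ratio of 2.08 [1.70 to 2.55]. Gfer and Chchd4, the oxidase and the receptor of the disulfide relay that traps small TIMs, were at 1.80 [1.61 to 2.03] and 1.55 [1.42 to 1.69], and Romo1 at 0.939 [0.900 to 0.980] was the exception. Mitochondrial chaperones and proteases were higher in 11 of 11 (of 15) at a median of 1.21, from Hspa9 to the protease Oma1 at 1.59 [1.09 to 2.33].

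In unscaled UMIs per cell, the mRNAs that the mitoribosome reads summed to nearly equal levels in knockout and control cells. Of the 11 listed mitochondrially encoded genes, 4 were higher and 7 lower, at a median ratio of 0.990, and their summed level was 538 UMIs per knockout and 542 per control cell. They ran from mt-Nd1 of complex I at 0.848 [0.837 to 0.860] to mt-Nd4l at 1.25 [1.12 to 1.39]. The abundant mt-Co1, with 121 UMIs per knockout and 108 per control cell, was at 1.12 [1.11 to 1.14]. The median log2 ratio of the 11 genes was -0.015 in UMIs per cell and 0.33 when scaled to the listed total. It was -0.28 when scaled to that total without Ins1, Ins2 and Iapp, and -0.56 when centred. All 11 lay below the median of all listed genes. Nuclear subunits of oxidative phosphorylation were at a median ratio of 1.04 (40 of 68 higher). Proteins of the cytosolic ribosome were at 1.25 (78 of 80 higher), close to the value of the 64 mitoribosomal genes, 1.27. Median control levels of these 3 groups were far apart, at 3.98, 22.3 and 0.624 UMIs per cell. As ratios fell with level in all listed genes, medians that are close do not stand for a like shift. None of these differences between groups was tested.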

How the data were processed

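Per the labels' protocols, islets were freed with collagenase and protease, picked by hand, cultured overnight and dissociated with accutase, and libraries followed 10X Genomics protocols. The submitters' processing notes name Cell Ranger 3.0.0 and build mm10. Cell filters, doublet removal, cell typing and the test behind the p-values are absent from the sources used here. The authors deposited, per cell type, a signal value per gene, which is the mean UMIs per cell (times the cell number, 100% of values were whole within 0.001, or 99.99% in control beta cells), and their own p-values and q-values, computed from cells. The tables hold no barcodes. KO1 and KO2 are column names not matched to a mouse.

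From these, ratios without a pseudocount, exact Clopper-Pearson intervals on the split of UMIs (scipy 1.17.1) and counts at a fold of 1.5 were computed. A group at 0 UMIs was set to 3 UMIs over its cells. Classes of the ribosome and translocases, the other lists, and the genes named (the 3 highest and 3 lowest ratios and the 3 highest control levels per group, and the ends of each other list) came from written rules, and not every gene they pick is printed. Members and lists were chosen with earlier results of these data known; the level ranges, the neighbouring genes, the empty stretch, the receptor, small TIM and stalk groups, and the promoters shown were chosen after values were seen. edgeR 4.0.16 (R 4.3.3) ran on recovered UMIs of the 231 delta-cell genes, with Benjamini-Hochberg adjustment, 1 residual degree of freedom. Those genes had been picked for differing in the same cells, which makes the p-values too small. Coordinates are from GENCODE M21, of the same build; all 87 identifiers were found.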

Additional observations from a re-analysis of the deposited data

How the results depend on the processing

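The count of 16 beta-cell genes higher at a fold of 1.5 was 1 at a fold of 2, 8 with a pseudocount of 0.0519 UMIs per cell, 54 when scaled to the listed total, 3 when scaled to that total without Ins1, Ins2 and Iapp, and 1 when centred on the median of all listed genes; with centring, 4 were lower. The median log2 ratio of all 87 genes, 0.32, was 0.30, 0.67, 0.053 and -0.22 under those last 4 settings in the same order. That of the large subunit was 0.34, 0.72, 0.11 and -0.17. That of the small subunit was 0.63, 0.012 and -0.26 under the 3 scalings, and that of the 20 import genes 0.58, -0.034 and -0.31. A minimum of 0.1 UMI per cell left 86 genes and a count of 15.

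In delta cells, both genes passed a fold of 1.5 (2 against 0) when scaled to the listed total. Their log2 ratios were then 0.79 (Mrpl33) and 0.90 (Mrpl36), as in edgeR with that total as offset (0.79 and 0.90). A large part of that total was the beta-cell product Iapp, at 797 UMIs per cell in KO1, 698 in KO2 and 1825 in WT. No scaling without Iapp was run in delta cells, so its part in these values was not tested. Centring on the table's median gave 0 and 0.11, and the pseudocount gave 0.46 for Mrpl36. Leaving out either knockout mouse gave 0.35 to 0.48 for Mrpl33, 0.49 to 0.57 for Mrpl36 and a count of 0. No alternative was run for alpha cells, where none of the genes was listed. No paired analysis was possible because the labels give the groups no shared replicate numbers and there was 1 control mouse. Depth limits single genes: Timm21 rests on 77 and 35 UMIs.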
